A study of Mus musculus with 22 samples.

Results

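The 5 libraries described here are part of the 22 libraries of the series: CD8+ T cells activated for 48 h from 2 mice labelled KO (replicates 1 and 5) and from 3 mice labelled wt (replicates 1, 3 and 5). The libraries were chosen by their labels alone, and they are set against each other across 20273 genes outside chromosomes X and Y, because the groups differ in sex. Naive CD8+ T cells from lymph nodes and spleen had been purified by magnetically removing other cells, and were stimulated with 2 µg/ml plate-bound anti-CD3 and 1 µg/ml soluble anti-CD28. Poly(A) RNA was sequenced and counted per gene. The series also holds naive libraries of both groups, and libraries of mice labelled KI, which are used here for comparison only.

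The KO libraries came from the line Tcaim KO Cd4Cre with the genotype label hocre, and both mice were female. The wt libraries came from the other line, Tcaim KI Cd4Cre, with the genotype label wtcre, and the mice of replicates 1, 3 and 5 were male, male and female. No wild-type mouse of the KO line is analysed here, so the KO allele and the difference between the lines cannot be told apart. Cd4Cre is in the name of both lines: Cre recombinase under the Cd4 promoter acts from the double-positive thymocyte stage, and so also in T cells that later become CD8+. The replicate number is the number of the experiment, ages are not given, and each library is labelled as 1 mouse. With 2 mice against 3, the p-values rest on the spread between mice within groups, estimated over all groups of the series. Libraries of different times with the same label (KO, wt or KI) and replicate come from 1 mouse. The fit treats them as independent, so its degrees of freedom do not count separate mice.

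TCAIM is a mitochondrial protein of T cells. Stimulation through CD3 and CD28 turns a resting CD8+ T cell into a growing, dividing cell that raises glycolysis, ribosome production and the synthesis of sterols and fatty acids, while it loses the transcripts of the resting state. Interferons act on the same cells through JAK kinases and STAT transcription factors: type I interferon drives genes with an interferon-stimulated response element, and interferon-gamma drives a partly different set that includes the guanylate-binding proteins.

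Expression is given as CPM, which is counts scaled to the library total after adjustment by the trimmed mean of M values, and a difference as the log2 fold change of KO against wt with its standard error (SE), from edgeR's quasi-likelihood test with Benjamini-Hochberg adjustment over 21183 genes. The 5 libraries held between 72259790 and 89356908 counts. KO replicate 1 stood apart from its group. Among 9796 genes with a mean of at least 10 CPM, 2011 (20.5%) differed by more than 2-fold between the 2 KO libraries, against 180 to 899 between pairs of wt libraries. KO replicate 5 differed from wt replicate 1 in 56 genes and from wt replicate 5 in 81. KO replicate 1 was nearest to wt replicate 3, from which 430 genes differed. On the first principal component of the 48 h libraries (53.1% of the variance), KO replicate 1 lay at 53.2 and wt replicate 3 at 19.6, and KO replicate 5 at -26.8 lay beside wt replicate 5 at -30.0. The KO group is therefore described throughout by both of its libraries.

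**Figure D1:**
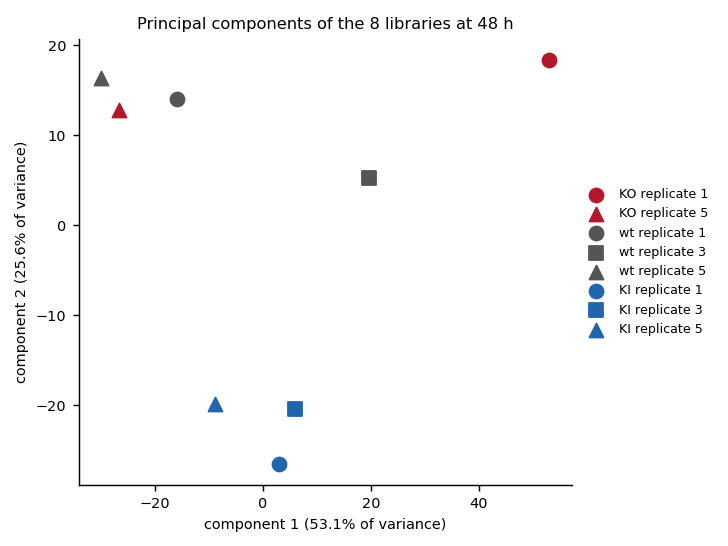
Principal components of the 8 libraries at 48 h, with the position on component 1 (53.1% of the variance) on the x axis and on component 2 (25.6%) on the y axis, and 1 point per library. The 2 KO libraries lie at 53.2 and -26.8 on component 1, the wt libraries at -16.0, 19.6 and -30.0, and the KI libraries are separated from both groups on component 2.

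The cells carried the defining transcripts of CD8+ T cells in all 5 libraries. Cd8a, a chain of the CD8 co-receptor, was at 697 and 727 CPM in KO and at 770, 1001 and 711 in wt. Transcripts of other lymphocytes were also present and differed most in KO replicate 1. Cd4 was at 152 and 15.6 CPM in KO and at 11.1, 32.5 and 30.5 in wt. KO replicate 1 was the high library, and KO replicate 5 lay inside the wt range. In these bulk samples, fewer cells of a type and less RNA per cell cannot be told apart.

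Tcaim itself did not separate the libraries labelled KO from wt at the level of whole-gene counts. Tcaim (ENSMUSG00000046603, mm10 chromosome 9, 122805539 to 122836334) was at 11.7 and 5.99 CPM in KO and at 9.20, 12 and 9.03 CPM in wt. One KO library was inside the wt range and the other below it, and the log2 fold change was -0.19 (SE 0.208, edgeR adjusted p = 0.84). Without KO replicate 5 it was 0.21. Which exons the KO allele lacks is not given in the sources used here, and counts over the whole gene do not show a deletion that leaves transcript behind. KI libraries, at 233, 229 and 260 CPM, were far above both groups.

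A single gene passed the test between KO and wt. At an adjusted p under 0.05, edgeR called 1 of 20273 genes higher (0.00493%) and 0 lower (0%). At an unadjusted p under 0.05, 1034 genes were higher (5.1%) and 372 lower (1.83%). DESeq2 called 23 genes and limma voom with sample weights 2. The count depended on which KO library was in the fit. Without KO replicate 5 it was 4631, of which 2077 were higher and 2554 lower, and without KO replicate 1 it was 3. Without wt replicate 5 it was 2. Both KO libraries lay above all 3 wt libraries for 901 genes (4.44%) and below all 3 for 941 (4.64%), and the median log2 fold change over all genes was -0.01.

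The gene that rose was Gm15446 (ENSMUSG00000090015, mm10 chromosome 5, 109923400 to 109943936), a predicted gene with an exon that overlaps Gm26808 on the opposite strand. Gm15446 was at 7.14 and 9.86 CPM in KO and at 1.34, 1.21 and 1.84 CPM in wt. The groups did not overlap. The difference was 2.54 on the log2 scale (SE 0.238, edgeR adjusted p = 2.49e-05). It lay between 2.29 and 2.76 over the alternatives, and the adjusted p between 1.47e-24 and 1.0, passing the threshold except where the compared groups or the 48 h libraries were fitted alone. The same gene separated naive cells, at 10.8 and 13.6 CPM in KO and at 1.38, 1.26 and 1.12 CPM in wt. KI libraries, at 0.890, 0.989 and 0.939 CPM, were all below the lowest wt library, and wt and KI are of 1 line. Within 10 Mb on either side of Gm15446, 25 of 280 tested genes had an unadjusted p under 0.05 (8.93%), against 7.36% of the genes of chromosome 5, and 0 other genes there passed edgeR's adjusted test.

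The next genes higher in both KO libraries did not pass the adjusted test. With Gm15446, they are the 12 of smallest p whose KO libraries both lay above the wt range, so 11 are left. Adss (adenylosuccinate synthase of purine synthesis) was at 254 and 273 CPM in KO and at 158, 138 and 194 in wt, a difference of 0.69 on the log2 scale (SE 0.145; edgeR adjusted p = 0.194, and 0.0128 to 1.0 over the alternatives). The 2 KO libraries were nearly equal for Adss, and in naive cells its fold change was 0.49. Itga3, the integrin alpha 3 chain, was at 18 and 13.5 CPM in KO and at 5.24, 7.82 and 8.66 in wt. No wt library reached either KO library for Itga3, which the choice of the list required.

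St3gal1, a sialyltransferase that caps O-glycans on T cell surface proteins, was at 119.8 and 61.8 CPM in KO and at 41.9, 55.5 and 43.7 in wt. Galnt10, which starts such O-glycans, was at 44.0 and 20.6 CPM in KO and at 17.6, 17 and 16.8 in wt. For both of these glycosylation genes KO replicate 5 lay just above the wt range and KO replicate 1 well above it. KI libraries were also above every wt library, and above KO replicate 5. They were at 69.2, 70.2 and 85.8 CPM for St3gal1 and at 37.0, 29.3 and 39.2 for Galnt10. Ints6, a subunit of the Integrator complex that processes nascent RNA, was at 104 and 78.5 CPM against 58.9, 59.9 and 65.5. Nepro, a nucleolar gene, was at 59.5 and 47.3 CPM against 39.1, 35.3 and 35.1.

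A pair of joining segments of the T cell receptor beta locus were on the same list. Trbj1-1 was at 7.52 and 5.74 CPM in KO and at 2.28, 2.85 and 2.94 in wt, 1.30 higher on the log2 scale (SE 0.272, edgeR adjusted p = 0.191). Trbj1-2 was at 12.9 and 7.01 CPM in KO and at 3.55, 5.18 and 4.25 in wt. In both segments the lower KO library was above the highest wt library, which the choice of the list required. Prr33, at 33.3 and 6.56 CPM against 4.95, 4.52 and 5.48, and Ascc3, a helicase of DNA alkylation repair, at 195 and 106 CPM against 98.1, 104 and 83.1, were set apart mainly by KO replicate 1. Gm20481, at 6.12 and 1.02 CPM against 0.715, 0.227 and 0.402, overlaps the heat shock gene Hspa1a on the other strand, and its reads cannot be told apart from those of Hspa1a unless the counting used strand.

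Of the 12 genes lower in both KO libraries, none passed the adjusted test, and 3 belong to the interferon response (Usp18, Oasl1 and Cmpk2). Dynlt1-ps1 had the smallest p, at 38.1 and 52.5 CPM in KO and at 73.9, 84.4 and 75.8 in wt (log2 fold change -0.79, SE 0.149, edgeR adjusted p = 0.147). It is a pseudogene of a dynein light chain, and how reads were split between it and its parent genes is uncertain. Eno1, the glycolytic enolase, was at 177 and 216 CPM in KO and at 285, 298 and 273 in wt, a difference of -0.54 on the log2 scale (SE 0.142, edgeR adjusted p = 0.545). Sub1, a transcriptional coactivator, was at 143 and 201 CPM against 232, 239 and 242. For these 3 genes the wt libraries lay close together, and both KO libraries were below them, as the choice of the list required.

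Arrdc4, an arrestin-domain gene known to respond to glucose, was at 1.04 and 1.82 CPM in KO and at 3.42, 3.70 and 3.35 in wt (log2 fold change -1.28, SE 0.334, edgeR adjusted p = 0.545). Pctp, a phosphatidylcholine transfer protein, was at 2.65 and 3.38 CPM against 5.58, 5.45 and 4.93. Dcun1d4, of the neddylation machinery, was at 2.79 and 5.67 CPM against 7.97, 9.17 and 6.84. Hes6, of the HES family of transcriptional regulators, at 9.57 and 14.5 CPM against 17.1, 18.9 and 18.3, and Clstn1 (calsyntenin 1), at 9.13 and 13.3 CPM against 18.4, 26.2 and 13.5, completed the list with Gm44148, which overlaps Usp18.

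**Figure D2:**
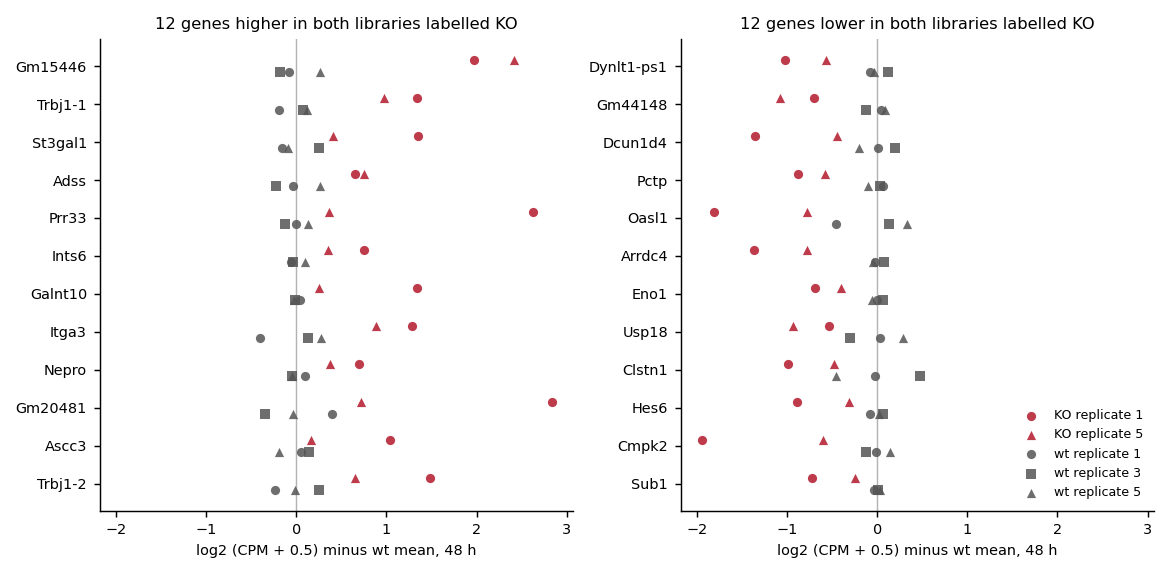
For 12 genes higher and 12 genes lower in both libraries labelled KO, the x axis gives log2 (CPM + 0.5) minus the wt mean at 48 h and each point is 1 library, coloured by group and shaped by replicate. Only Gm15446, at 7.14 and 9.86 CPM in KO, passed edgeR's adjusted test, and for most of the other genes KO replicate 1 is farther from wt than KO replicate 5.

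Interferon-stimulated genes were lower in KO than in wt, with no member past the adjusted test. Of 34 genes tested, 31 had a fold change below 0 and 3 above it, while over all genes 10367 lay below and 9750 above. The median log2 fold change was -0.59, against -0.01 over all genes. At an unadjusted p under 0.05, 11 of 34 were lower and 0 higher, against 1.83% and 5.1% of all genes. Both KO libraries were below all wt libraries for 10 of 34, against 4.64% of all genes. The share of both kinds was above that of all genes, and the size depended on the library: the median was -0.23 with KO replicate 1 left out, -1.64 without KO replicate 5 and -0.18 without wt replicate 5. Relative to the wt mean, the list's median level was -0.78 in KO replicate 1 and -0.14 in KO replicate 5, and in wt -0.14, -0.32 and 0.42, so that KO replicate 5 was inside the wt range and KO replicate 1 below it. Within experiment 1, 29 of the 34 genes were lower in KO (median -0.73), and within experiment 5, 32 were lower (median -0.47).

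Among these genes, the promoters of Oas3, Isg15 and Phf11a are shown because each holds a core match to the interferon-stimulated response element close to its start and both KO libraries lay below wt. The sequences are from RefSeq, build GRCm38.p6, all on the minus strand, and give the 150 bases before the start 5′ to 3′. Capitals mark matches to GAAANNGAAA, of which Isg15 has 3 that overlap. The positions are chr5:120777660-120777809 for Oas3, chr4:156200819-156200968 for Isg15 and chr14:59297523-59297672 for Phf11a.
Oas3: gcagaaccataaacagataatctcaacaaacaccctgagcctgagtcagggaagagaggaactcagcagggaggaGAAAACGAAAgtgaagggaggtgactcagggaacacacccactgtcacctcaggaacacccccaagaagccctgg
Isg15: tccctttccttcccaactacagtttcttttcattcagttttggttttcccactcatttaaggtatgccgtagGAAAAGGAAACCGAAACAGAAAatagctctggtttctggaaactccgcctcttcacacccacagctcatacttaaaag
Phf11a: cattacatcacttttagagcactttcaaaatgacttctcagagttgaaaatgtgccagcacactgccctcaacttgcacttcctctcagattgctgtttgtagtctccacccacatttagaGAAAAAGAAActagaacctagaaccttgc

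The motif GAAANNGAAA was searched on both strands in the 250 bases before the start. It was found in 13 of 25 interferon-stimulated genes with a promoter in the table (52.0%), and in 4 of the 7 with one whose KO libraries were both below wt. Of all 32851 promoters, 2.98% held it, and of the 11644 tested genes with a promoter 3.38% did. A match is a run of letters and was not measured as a bound site.

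Isg15, a ubiquitin-like modifier, was at 1.15 and 7.10 CPM in KO and at 7.68, 7.65 and 16 in wt, a difference of -1.33 on the log2 scale (SE 0.484, edgeR adjusted p = 0.67). For Isg15 the KI libraries, at 4.78, 4.49 and 5.59 CPM, were also below every wt library, and below KO replicate 5. Usp18, the protease that removes ISG15, was at 28.8 and 21.8 CPM in KO and at 42.9, 34.0 and 51.3 in wt (-0.76 on the log2 scale, SE 0.202, edgeR adjusted p = 0.551). Both KO libraries were below wt for this pair, and for Usp18 the lower one was KO replicate 5. Oas3, an antiviral oligoadenylate synthetase, was at 25.0 and 25.1 CPM against 33.6, 48.4 and 32.6. Oasl1, of the same family, was at 0.507 and 1.55 CPM against 2.06, 3.38 and 3.94 (log2 fold change -1.58, SE 0.412, edgeR adjusted p = 0.545).

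Cmpk2, a mitochondrial nucleotide kinase, was at 1.07 and 3.49 CPM against 5.47, 5.04 and 6.19. Mx2, an antiviral GTPase, was at 0.492 and 1.45 CPM against 2.46, 2.37 and 2.77. The KO libraries were below every wt library for both genes. Stat2, which carries the type I interferon signal, was at 72.4 and 84.3 CPM against 95.9, 94.5 and 109. Phf11a was at 3.28 and 3.07 CPM against 3.68, 3.45 and 3.94, with a log2 fold change of -0.22. In naive cells the list's median difference between KO and wt was 0.00.

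Genes driven by interferon-gamma separated the groups less. Of 25 tested, 20 were lower and 5 higher in KO, the median was -0.17, and 0 had an unadjusted p under 0.05. Both KO libraries were below wt for 3 of 25 and above it for 1, against 4.64% and 4.44% of all genes. Without KO replicate 1 the median was 0.12, without KO replicate 5 it was -0.86, and without wt replicate 5 it was 0.08. Ifng, the cytokine itself, chosen after its values were seen, was at 14.4 and 64.5 CPM in KO and at 53.7, 37.2 and 134 in wt. The groups overlapped. Within each experiment the KO library was below its wt partner, but KO replicate 5 was above wt replicates 1 and 3. KI libraries, at 5.95, 8.85 and 33.2 CPM, were all below the lowest wt library for Ifng.

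Genes of cholesterol synthesis were lower in KO, again with none past the adjusted test. Of 24 tested, 21 were lower and 3 higher, with a median of -0.37. At an unadjusted p under 0.05, 4 were lower, against 1.83% of all genes. Both KO libraries were below wt for 5 and above it for 0, against 4.64% and 4.44% of all genes. Leaving out KO replicate 1 gave a median of -0.15, and leaving out KO replicate 5 gave -0.48. Within experiment 1 it was -0.55 and within experiment 5 it was 0.13, so the 2 experiments differed in direction.

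Acat2, the cytosolic acetoacetyl-CoA thiolase that feeds the pathway, was at 31.0 and 63.7 CPM in KO and at 79.3, 78.5 and 69.8 in wt (log2 fold change -0.68). Msmo1, a sterol oxidase, was at 76.2 and 95.8 CPM against 126, 133 and 103. For both, each KO library was below every wt library. Hmgcs1, the synthase before the rate-limiting step, was at 122 and 200.2 CPM against 248, 299 and 174, and Dhcr7, of the last step, at 51.4 and 74.6 CPM against 101, 112 and 60.5. In those 2 genes KO replicate 5 lay inside the wt range.

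**Figure D3:**
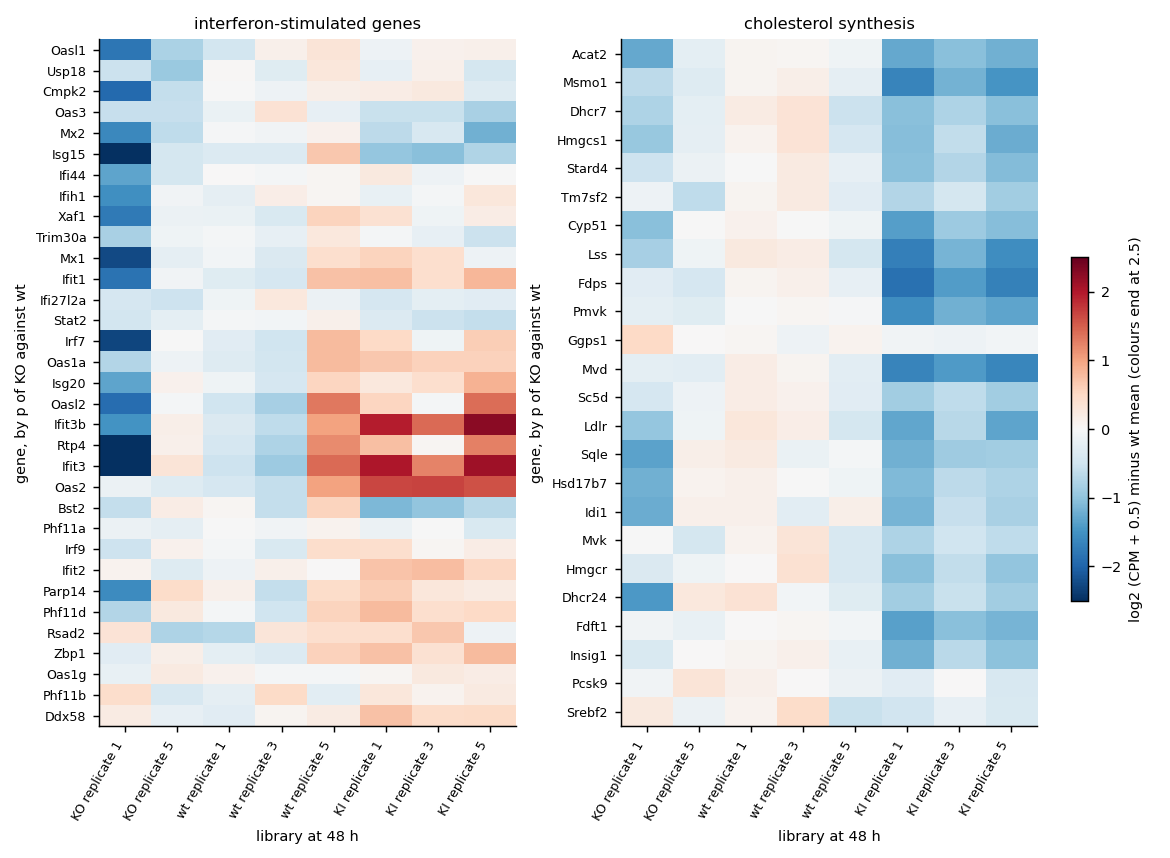
Each cell gives 1 gene in 1 library at 48 h as log2 (CPM + 0.5) minus the wt mean, with blue below and red above it, for 33 of the 34 interferon-stimulated genes on the left and 24 cholesterol synthesis genes on the right, ordered by p. The column of KO replicate 1 is the bluest of the interferon panel (median over the 34 genes -0.78), KO replicate 5 is paler (-0.14), and in the cholesterol panel the KI libraries (medians -1.13, -0.69 and -1.03) lie below both KO libraries.

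Fatty acid synthesis genes were lower for 15 of 18, with a median of -0.15. At an unadjusted p under 0.05, 1 gene was lower, against 1.83% of all genes, and none had both KO libraries outside the wt range. The experiments differed in direction, with a median of -0.35 and 13 of 18 lower in experiment 1, and a median of 0.13 and 3 of 18 lower in experiment 5. Glycolysis genes were split, with 12 of 21 lower and a median of -0.17, which was -0.32 with KO replicate 1 left out, 0.06 with KO replicate 5 left out and 0.03 with wt replicate 3 left out. Both KO libraries were below wt for Eno1, for Pfkl and for Ldha, 3 of 21 genes against 4.64% of all genes. Pfkl, the liver-type phosphofructokinase, was at 123 and 158 CPM in KO and at 194, 212 and 166 in wt. Ldha, which makes lactate, was at 1041 and 1554 CPM against 1715, 1641 and 1595. KO replicate 5 was close to the lowest wt library in both.

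Nuclear genes of oxidative phosphorylation were lower for 40 of 44 with a small median of -0.17, and 0 had an unadjusted p under 0.05. For 5 of 44 both KO libraries were below wt, against 4.64% of all genes. The median was -0.07 with KO replicate 1 left out and -0.31 with KO replicate 5 left out, and it was -0.27 within experiment 1 and -0.17 within experiment 5. KI shared this direction: 36 of the 44 genes were lower in KI than in wt, with a median of -0.14. The median of KO against KI was -0.03. Of 12 genes of the mitochondrial genome, 8 were lower, with a median of -0.32 of which -0.03 remained with KO replicate 1 left out, against -1.01 with KO replicate 5 left out. Mt-Nd6, the complex I subunit on the opposite strand to the other protein genes of that genome, was at 432 and 622 CPM in KO and at 910, 753 and 685 in wt. Mt-Atp6 was at 0.0745 and 17 CPM in KO and at 0.274, 0.176 and 0.0804 in wt. The value stands out in KO replicate 5 alone, and mt-Atp6 overlaps its neighbours mt-Atp8 and mt-Co3, so its counts are uncertain. Genes of contacts between mitochondria and endoplasmic reticulum were split 13 higher and 11 lower, with a median of 0.01 that was -0.09 with KO replicate 1 left out and 0.06 with KO replicate 5 left out.

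Several programs followed KO replicate 1 and not the group. Hypoxia response genes had a median of 0.33 that came to 0.86 with KO replicate 5 left out and to -1.15 with KO replicate 1 left out. Relative to the wt mean the list was at 0.91 in KO replicate 1 and at -0.61 in KO replicate 5, and in wt at -0.32, 0.64 and -0.44. Ndrg1, a classical hypoxia-induced gene, was at 142 and 11.7 CPM in KO and at 20.9, 86.6 and 13.3 in wt. KO replicate 1 and wt replicate 3 were the high libraries, and the groups overlapped.

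Ribosome biogenesis genes were low in the same library. Of 29, 27 were lower, with a median of -0.23, but without KO replicate 1 the median was 0.23 and without KO replicate 5 it was -1.04. Nop56, a core protein of box C/D small nucleolar ribonucleoproteins, was at 156 and 351 CPM in KO and at 364, 232 and 361 in wt. The 50 cell cycle genes had a median of -0.17, with 37 lower, which came to 0.03 with KO replicate 1 left out and to -0.50 with KO replicate 5 left out. Both KO libraries were below wt for 4 of the 50, against 4.64% of all genes.

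The stress response to amino acid shortage was split, with 14 of 22 genes higher and a median of 0.06. Without KO replicate 1 the median was -0.40, and without KO replicate 5 it was 0.50. Ddit3, the stress transcription factor CHOP, was at 164 and 19 CPM in KO and at 28.9, 43.7 and 23.0 in wt. The 2 KO libraries were the highest and the lowest of the 5. Serine and one-carbon genes had 15 of 18 lower and a median of -0.13, against -0.02 with KO replicate 1 left out and -0.28 with KO replicate 5 left out, and in experiment 5 alone 6 of 18 were lower (median 0.07).

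The unfolded protein response (22 genes) had a median of 0.05, which turned to -0.22 with KO replicate 5 left out and to -0.11 with wt replicate 3 left out. The p53 targets (17 genes) had a median of -0.07, which was 0.04 with KO replicate 1 left out and -0.14 with KO replicate 5 left out. In the 14 heat shock genes the median of 0.06 was 0.20 with KO replicate 1 left out, and turned to -0.06 with KO replicate 5 left out and to -0.07 with wt replicate 3 left out. Hspa1a, the inducible HSP70, was at 12.4 and 1.65 CPM in KO and at 1.37, 0.655 and 0.979 in wt. Each KO library was above wt, KO replicate 5 only slightly. Its near-identical copy Hspa1b, at 16.8 and 1.91 CPM against 1.94, 1.08 and 2.16, can share its reads.

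Naive and memory markers were split 13 higher and 10 lower, with a median of 0.13. It turned to -0.19 with KO replicate 1 left out and was 0.28 with KO replicate 5 left out, and in experiment 5 alone 19 of 23 were lower (median -0.12). Ly6c2, a surface protein of memory CD8+ T cells, was at 33.7 and 14.6 CPM in KO and at 66.8, 67.1 and 37.6 in wt. Dapl1, a transcript of resting T cells, was at 89.7 and 90.6 CPM against 143, 149 and 107. Both genes were lower in each KO library than in any wt library. Satb1, a chromatin organiser of naive T cells, was high in KO replicate 1 alone, at 813 and 246 CPM against 299, 357 and 256.

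Effector markers had 21 of 32 lower and a median of -0.10, which turned to 0.10 with KO replicate 1 left out and was -0.28 with KO replicate 5 left out. Checkpoint and costimulatory receptors had 12 of 18 higher and a median of 0.23, which turned to -0.24 with KO replicate 1 left out, and was 0.49 with KO replicate 5 left out and 0.46 with wt replicate 3 left out. Tnfrsf4, the costimulatory receptor OX40, was at 342 and 120.0 CPM in KO and at 129.7, 159 and 122 in wt. Here too KO replicate 1 was the high library and KO replicate 5 lay just below wt. AP-1, EGR and NR4A factors, the early transcription factors of T cell receptor signalling, had a median of 0.08 over 28 genes, which was 0.13 with KO replicate 1 left out and turned to -0.14 with KO replicate 5 left out. The 15 genes of CD8 T cell identity were split 10 higher and 5 lower, with a median of 0.11 that turned to -0.17 with KO replicate 1 left out and stood at 0.21 with KO replicate 5 left out. Thy1, a lower member, was at 539 and 672 CPM in KO and at 974, 711 and 729 in wt.

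Single wt libraries also set the sign of some of these small medians. With wt replicate 5 left out, effector markers stood at 0.18, p53 targets at 0.08, the amino acid stress genes at -0.10 and ribosome biogenesis at -0.08, and the hypoxia median was 0.00. With wt replicate 1 left out, the AP-1, EGR and NR4A factors and the serine and one-carbon genes were both at -0.03 and hypoxia genes at 0.06.

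**Figure D4:**
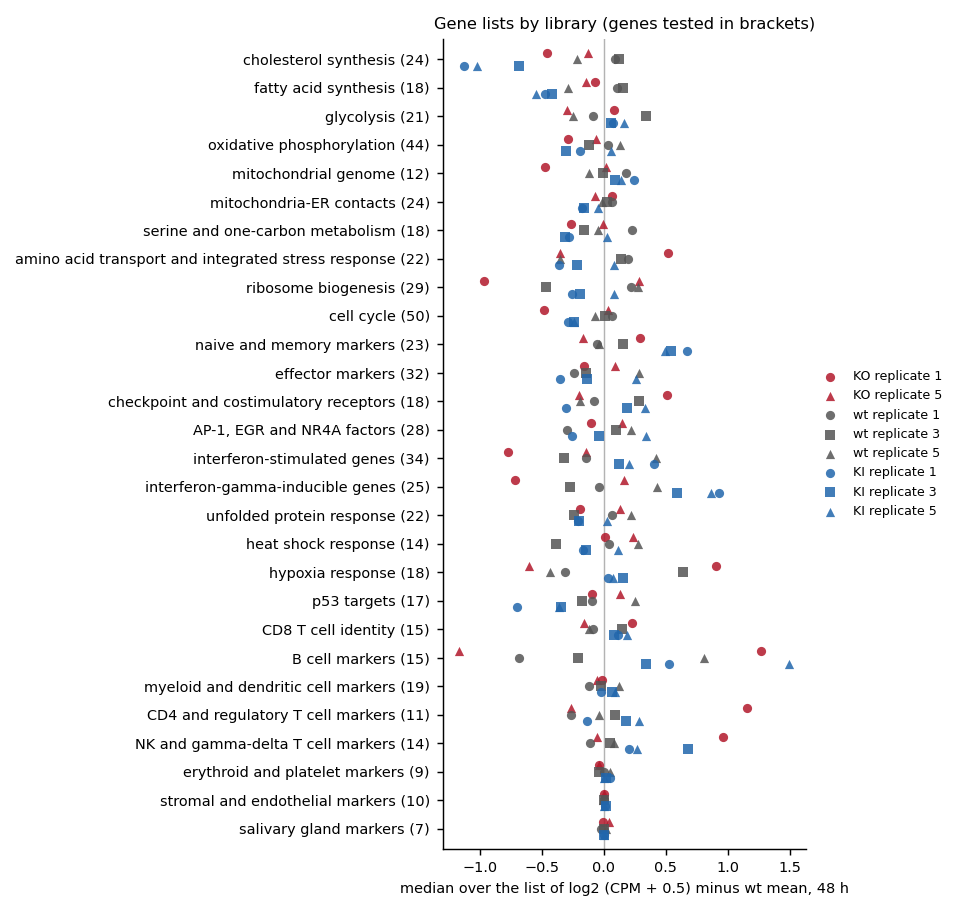
For 28 gene lists, the x axis gives the median over the list of log2 (CPM + 0.5) minus the wt mean at 48 h, and each point is 1 library. The 2 KO libraries lie on opposite sides of 0 for hypoxia genes (0.91 and -0.61) and B cell markers (1.27 and -1.17), and both lie below 0 for interferon-stimulated genes (-0.78 and -0.14).

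Markers of other lymphocytes were high in KO replicate 1, and those of B cells not in that library alone. Of 15 B cell markers, 12 were higher, with a median of 0.29 that turned to -1.54 when KO replicate 1 was left out and stood at 1.10 when KO replicate 5 was. It was -0.03 when wt replicate 1 was left out. Their summed level was 1361 and 721 CPM in KO and 710 to 1302 CPM in wt, with wt replicate 5 the highest. In KI it was 986, 902 and 1738 CPM, so that KI replicate 5 was above KO replicate 1. The 11 markers of CD4 and regulatory T cells, 10 of them higher with a median of 0.53 that turned to -0.71 with KO replicate 1 left out, summed to 381 and 87.7 CPM in KO and to 92.2 to 190.2 CPM in wt. The 14 markers of NK and gamma-delta T cells had a median of 1.08, which was -0.27 without KO replicate 1. Of them, 13 were higher, 5 at an unadjusted p under 0.05, against 5.1% of all genes. Most of these stood at under 3 CPM in each library. The sum is mainly Eomes, a factor that memory CD8+ T cells also use, and was 97.9 and 96.1 CPM in KO and 114 to 143 CPM in wt. For KI against wt, the median was 0.87 for B cell markers and 0.13 for CD4 and regulatory T cell markers. It was 1.17 for NK and gamma-delta T cell markers.

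The 19 myeloid and dendritic markers had a median of -0.23 (-0.94 with KO replicate 1 left out and 0.47 with wt replicate 5 left out) and summed to 188 and 226 CPM in KO and 155 to 300 CPM in wt. Lyz2, the macrophage lysozyme, was at 0.253 and 0.431 CPM in KO and at 0.131 to 2.16 CPM in wt. Markers of erythroid cells and platelets (9 tested, median -0.83) summed to under 4 CPM in every 48 h library of both groups, stromal and endothelial markers (10 tested, median 0.00) to 69.7 and 94.1 CPM against 86.8 to 93.3, and salivary gland markers (7 tested, median 0.77, and -0.10 with KO replicate 5 left out) to 4.29 and 3.20 CPM against 2.85 to 5.64. The same B cell markers already stood apart in the naive sample of KO replicate 1, at a summed 7283 CPM against 1247 in KO replicate 5 and 2088 to 3095 in wt. The part of these cells in the differences above was not tested.

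Within each experiment, 1 KO library can be set against 1 wt library, without a replicate and so without a test. Of 9796 genes, 1607 differed by more than 2-fold in experiment 1 (710 higher in KO and 897 lower) and 81 in experiment 5 (22 higher and 59 lower). Only the pair of experiment 5 is of 1 sex as well as 1 experiment. The SD of the log2 differences was 0.747 in experiment 1 and 0.303 in experiment 5, and across genes, which are not independent replicates, they had a Pearson r of -0.07.

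In both experiments, 10 genes passed 2-fold in the same direction and 38 in opposite directions. Of the 10, the genes lower in KO were Ifng and the interferon-stimulated genes Isg15, Oasl1, Oasl2, Rtp4 and Ifit3. The genes higher in KO were Kcna3, the voltage-gated potassium channel of T cells, the antisense transcript Bach2os, and the predicted genes Gm5850 and Gm5851, whose values were equal or nearly so in every 48 h library. Kcna3 was at 38.7 and 27.2 CPM in KO and at 17, 25.5 and 11.5 in wt. Bach2os was at 34.0 and 19.1 CPM against 14.6, 20.5 and 8.46, so that wt replicate 3, which has no KO partner, overlapped the KO range. KI libraries were in or near the KO range, at 34.4, 38.6 and 25.2 CPM for Kcna3 and at 20.4, 27.4 and 21.7 for Bach2os. Gm5850 varied widely within groups. It was at 68.1 and 47.1 CPM in KO, at 12.1, 13.5 and 0.657 in wt and at 14.9, 39.9 and 67.9 in KI. These genes were chosen after their values were seen.

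The other genes past 2-fold differed between the experiments. In experiment 5, 12 of 14 B cell markers and 8 of 29 interferon-stimulated genes were among the 59 lower genes. The MHC class II gene H2-Aa differed by -2.42 on the log2 scale. In experiment 1, 10 of 14 B cell markers and 5 of 10 hypoxia genes were among the 710 higher genes, and 19 of 29 ribosome biogenesis genes, 14 of 29 interferon-stimulated genes and 8 of 22 cholesterol genes among the 897 lower ones. B cell markers thus lay on opposite sides in the 2 experiments, and the interferon-stimulated genes on the lower side of the wt partner in both. In experiment 5 that partner, wt replicate 5, was the highest wt library for the interferon-stimulated genes (0.42 relative to the wt mean). KO replicate 5, at -0.14, was level with wt replicate 1 at -0.14 and above wt replicate 3 at -0.32.

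**Figure D5:**
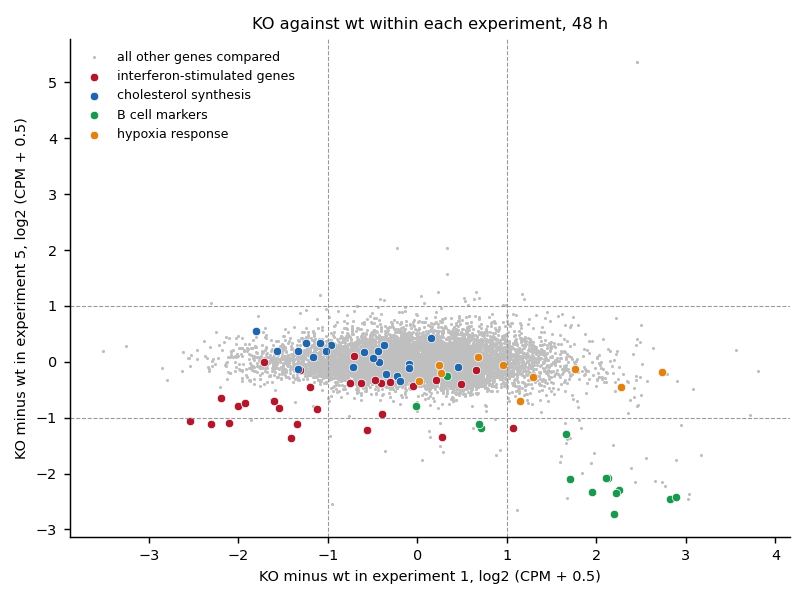
Each point is 1 of 9796 genes, with the difference of KO from wt in experiment 1 on the x axis and in experiment 5 on the y axis, both in log2 (CPM + 0.5), and dashed lines at 2-fold. The cloud is wide along experiment 1 (SD 0.747) and narrow along experiment 5 (SD 0.303), and interferon genes make up the lower left corner.

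The difference at 48 h was then set against the same difference in naive cells. The interaction, which asks whether KO and wt responded differently to activation, called 0 of 20273 genes higher (0%) and 0 lower (0%) by edgeR, with 472 at an unadjusted p under 0.05. DESeq2 and limma voom also called 0, and without KO replicate 5 the count was 1314. In naive cells, 2 genes rose in KO, Gm15446 and Bpifa2. Bpifa2, a salivary secretory protein, was at 41.1 and 15.3 CPM in naive KO libraries and at 0.0745 and 0.159 CPM in KO at 48 h.

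Against KI, the libraries labelled KO differed in many more genes. This comparison uses the same KO libraries, so it is not independent of that with wt, and KI and KO come from different lines. By edgeR's adjusted test, 473 genes were higher in KO than in KI (2.33%) and 422 lower (2.08%). The count of 895 was 0 when the KO and KI libraries were fitted alone, 3 when the 48 h libraries were, 5 with limma voom and 1874 with DESeq2. Without KO replicate 5 it was 4987, without KO replicate 1 it was 435, and without KI replicates 1, 3 and 5 it was 57, 199 and 316.

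Tcaim fell, at 11.7 and 5.99 CPM in KO and 233, 229 and 260 CPM in KI (log2 fold change -4.77, SE 0.254, edgeR adjusted p = 3.49e-09). Cholesterol synthesis genes were higher in KO than in KI, opposite to their direction against wt. Of 24 genes, 7 rose and 0 fell, against 2.33% and 2.08% of all genes. The median was 0.59, and that of KI against wt was -0.97. Mvd, the decarboxylase of the mevalonate pathway, was at 45.5 and 44.6 CPM in KO, at 61.4, 56.8 and 44.7 in wt and at 16.9, 19.7 and 17.1 in KI. Fdft1, which commits the pathway to sterols, was at 95.0 and 88.7 CPM in KO, at 101, 104 and 96.2 in wt and at 39.0, 48.7 and 44.9 in KI. For both genes every KO library was far above KI. Both KO libraries were below wt for Fdft1, and for Mvd KO replicate 1 lay inside the wt range. Acsl3, a fatty acyl-CoA ligase, was at 59.6 and 49.5 CPM in KO, on either side of the wt range of 49.8 to 55.9, and at 15.9, 28.7 and 15.8 in KI.

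Both interferon lists were lower in KO than in KI. Of 34 interferon-stimulated genes, 6 fell and 0 rose (median -0.75), against 2.08% and 2.33% of all genes. Of 25 interferon-gamma-inducible genes 7 fell and 0 rose (median -0.95). KI itself lay above wt, with medians of 0.27 and 0.77 for the 2 lists. Not every gene followed: 9 of the 34 and 3 of the 25 were lower in KI than in wt, Isg15 among the 9. For KO against wt the medians were -0.59 and -0.17, and the second turned above 0 without KO replicate 1. Of the 6 interferon-stimulated genes that fell against KI, Oasl1 and Cmpk2 were also among the 12 genes described above as lower than wt.

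Of 23 naive and memory markers, 7 fell against KI and 0 rose, against 2.08% and 2.33% of all genes. The list's median was 0.57 for KI against wt and 0.13 for KO against wt. Klf2, the factor that keeps T cells in a resting, recirculating state, was at 11.2 and 9.50 CPM in KO, at 13.9, 20.8 and 15.1 in wt and at 55.0, 45.2 and 48.5 in KI. Ccr9, the gut homing receptor, was at 3.83 and 8.79 CPM in KO, at 4.74, 8.77 and 11.3 in wt and at 33.5, 48.2 and 32.7 in KI. For Klf2 both KO libraries were below wt, while for Ccr9 they overlapped it. Ly6c2 fell against KI as well (log2 fold change -2.11, edgeR adjusted p = 0.021, range over the alternatives 0.00029 to 0.81).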

How the data were processed

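RNA was measured by poly(A) sequencing in 22 libraries, and the table of 46603 genes holds counts of reads per gene as deposited. Per the submitters' processing notes, bcl2fastq 2.20.0, TopHat2 2.1.0, Bowtie2 2.2.5, SAMtools 0.1.19, featureCounts and DESeq2 1.6.3 were used with GRCm38/mm10. The kit was stranded per the labels' protocols, but whether counting used strand is not given in the sources used here, so overlapping genes are uncertain. The deposited log2 table, which holds the same counts scaled per library, gave gene symbols and positions, and no test uses it.

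Counts of all 22 libraries (62551905 to 93489115 each) were filtered with filterByExpr (minimum count 10, total 15), which left 21183 genes, and were fitted with edgeR 4.0.16 in R 4.3.3: 8 group means, TMM factors, the quasi-likelihood F test, 14 residual degrees of freedom and Benjamini-Hochberg adjustment over all genes, with a threshold of 0.05. All groups share 1 estimate of the spread. Libraries of 1 mouse at different times were treated as independent, and no fit had a term for mouse. Then 910 genes on X, Y or with no chromosome were left aside, which leaves 20273. Alternatives were other scalings and filters, DESeq2 1.42.0, limma 3.58.1, fits of fewer groups, terms for experiment and sex, and leaving out each mouse. Leaving out KO replicate 1 with wt replicate 3 was added after seeing the data. The 4 pairs of libraries within a group at 48 h (KO and wt) differed by more than sampling noise. A few genes are not reported here.

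The text names Tcaim, up to 10 genes called in each direction, the 12 genes of smallest p in each direction with a mean of at least 1 CPM whose KO libraries both lay outside the wt range, the first 3 genes of each list and defining markers. Further genes are named where both KO libraries were outside wt or to show a list. The comparison and the 28 gene lists were chosen with earlier results of these data known. Same-numbered libraries share an experiment per the labels. Their deviations from the group means across 9796 genes correlated at -0.49 for KO and wt in experiment 1 and at 0.55 in experiment 5. Across experiments, KO replicate 1 correlated at 0.76 with wt replicate 3 and at -0.55 with wt replicate 5. KO replicate 5 correlated at 0.49 with wt replicate 1 and at -0.76 with wt replicate 3. The deviations of the KO libraries mirror each other, so their values are not separate checks. For KO and wt, these values do not show that libraries of the same experiment are more alike.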

Additional observations from a re-analysis of the deposited data

How the results depend on the processing

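The KO group holds 2 mice that were unlike each other, while each of the 5 libraries held 72259790 counts or more. The count of 1 gene between KO and wt was 0 with the compared groups or the 48 h libraries fitted alone, 2 with limma voom, with no filter, or without KO replicate 1 and wt replicate 3 together, 23 with DESeq2, and 94 with terms for experiment and sex, and it lay between 1 and 4631 when 1 mouse was left out. Against KI, the count of 895 was 0, 3, 5 and 1874 with the groups alone, the 48 h libraries alone, limma voom and DESeq2, and between 57 and 4987 without 1 mouse. The interaction gave 0 to 1314 genes without 1 mouse and 0 otherwise. The highest counts were all without KO replicate 5, and their cause was not tested. Tcaim was at -0.19, between -0.75 and -0.05 under the other alternatives, and reversed to 0.21 without KO replicate 5.

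With the replicate block, which pairs by experiment and not by mouse, the count was 1 against wt, 1038 against KI and 0 for the interaction. The log2 fold change of Tcaim in that fit was -0.19. The block changed no call among the genes named between KO and wt. With sex as a further term, the medians of checkpoint receptors (-0.16), B cell markers (-2.19), CD4 markers (-1.08) and NK markers (-0.30) turned below 0.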
